A study of Mus musculus with 8 samples.

Results

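The CC chemokine ligands examined here were 10 genes, Ccl2, Ccl3, Ccl4, Ccl5, Ccl7, Ccl8, Ccl11, Ccl12, Ccl17 and Ccl22, taken by name from the 24421 genes of the count table. All 10 were found in both the raw and the normalized table. Bulk RNA-seq was available for 8 whole MC38 tumors, MC38 being a mouse colon adenocarcinoma cell line. Female C57BL/6 mice carrying Kaede, a fluorescent protein that turns from green to red under violet light, were 9 weeks old when 250000 cells were injected subcutaneously. On day 10, at a tumor diameter of about 5 mm, violet light of 405 nm was shone on 4 of the tumors during 3 min (photoconverted), and 4 tumors in mice of the same strain, sex and age received no light (control). All 8 were collected 5 h later, so every animal of both groups carried the Kaede transgene and the same tumor line, and the exposure was the only labeled difference. The comparison addresses whether the light exposure itself altered the cells of the tumor.

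Chemokines are small secreted proteins that guide leukocytes along gradients by binding G protein-coupled receptors. CC ligands, named for a pair of adjacent cysteines, differ in the cells they call. CCL2, CCL7 and CCL12 act on CCR2 and draw monocytes out of the blood, and CCL8 belongs to the same cluster of monocyte chemoattractants, although in the mouse it acts mainly on CCR8. CCL3, CCL4 and CCL5 are made by activated T cells, NK cells and macrophages, and they attract effector T cells, NK cells and monocytes. CCL11 (eotaxin) recruits eosinophils through CCR3, and CCL17 and CCL22, typical products of dendritic cells, attract CCR4-bearing T cells including regulatory T cells. In tumors, CCL2 is best known for bringing in monocytes that become macrophages, and CCL22 for recruiting regulatory T cells.

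Total counts ranged from 16735293 to 35844417 in photoconverted and from 12576615 to 29439901 in control tumors. Of these counts, Rn45s, the ribosomal RNA precursor, took 21.9% in photoconverted tumor 4, 35.7% in control tumor 2 and 23.2% in control tumor 4, against 2.70% to 9.65% in the other 5 tumors. These 3 libraries stood apart in many of the results below, which are therefore also given without them. The epithelial markers Krt18, Krt19, Krt7 and Epcam fell below the filter on low counts, and the 6 epithelial markers examined summed to between 2.81 and 5.49 CPM (counts scaled to library size with TMM factors) in the 8 tumors, whereas the 10 monocyte and macrophage markers summed to between 476 and 1245 CPM. In RNA from whole tumors, fewer cells of a type and less RNA per cell cannot be told apart.

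In the GRCm38 (mm10) genome, 8 of the 10 genes lie on chromosome 11. Ccl2 (chr11:82035571-82037453), Ccl7 (chr11:82045712-82047525), Ccl11 (chr11:82057823-82062955), Ccl12 (chr11:82101845-82103400) and Ccl8 (chr11:82115185-82116799) follow each other on the plus strand. Ccl5 (chr11:83525778-83530518, minus strand), Ccl3 (chr11:83647844-83649355, minus strand) and Ccl4 (chr11:83662584-83664683, plus strand) form a second cluster. Ccl22 (chr8:94745590-94751699) and Ccl17 (chr8:94810453-94812036) are neighbors on the plus strand of chromosome 8. No stretch of 50 bases of the longest transcript of any of the 10 genes recurred in a transcript of another gene (0% of such stretches), whereas Ccl2 overlaps Gm17268, a protein-coding gene on the opposite strand.

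Promoter windows of 250 bases before the RefSeq start (GRCm38.p6) were found for 5 of the 10 genes, Ccl3, Ccl8, Ccl12, Ccl17 and Ccl22. Those of Ccl3 and Ccl8, from either chromosome 11 cluster, and of both CCR4 ligands are shown because the CCR4 ligands had lower mean levels in photoconverted tumors whereas the other members had higher ones. Capitals mark matches, on either strand, to 6 patterns. These were GGG and CC with 5 bases of any kind between them (the general form of an NF-kB site), TGA and TCA with 1 base between them (AP-1), GAAA and GAAA with 2 between them (interferon regulatory factors), TTC and GAA with 4 or with 3 between them (2 patterns, STAT factors), and TATAAA (the TATA box). No matches overlapped each other in these windows. Ccl22 is shown up to the start of its GENCODE model (156 bases), and both of its matches lie in that part.
Ccl3 (chr11:83649379-83649628, minus strand): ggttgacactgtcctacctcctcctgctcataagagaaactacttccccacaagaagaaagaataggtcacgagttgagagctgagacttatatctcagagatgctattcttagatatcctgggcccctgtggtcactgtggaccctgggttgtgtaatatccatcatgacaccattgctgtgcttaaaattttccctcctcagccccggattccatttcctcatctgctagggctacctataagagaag
Ccl8 (chr11:82114935-82115184, plus strand): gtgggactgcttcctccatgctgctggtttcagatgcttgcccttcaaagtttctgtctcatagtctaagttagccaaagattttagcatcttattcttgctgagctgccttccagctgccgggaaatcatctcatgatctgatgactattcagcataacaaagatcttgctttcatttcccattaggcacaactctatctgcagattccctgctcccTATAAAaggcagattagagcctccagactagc
Ccl17 (chr8:94810203-94810452, plus strand): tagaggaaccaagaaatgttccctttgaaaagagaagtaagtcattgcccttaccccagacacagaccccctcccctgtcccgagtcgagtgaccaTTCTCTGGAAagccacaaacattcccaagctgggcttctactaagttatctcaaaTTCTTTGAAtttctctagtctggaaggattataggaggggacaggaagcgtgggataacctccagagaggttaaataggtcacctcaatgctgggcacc
Ccl22 (chr8:94745434-94745589, plus strand): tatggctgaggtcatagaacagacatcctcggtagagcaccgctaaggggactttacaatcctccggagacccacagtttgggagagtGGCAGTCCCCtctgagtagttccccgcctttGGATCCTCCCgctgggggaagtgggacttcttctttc
The window of Ccl22 held 2 matches to the NF-kB pattern, both on the opposite strand, and it was the 1 of the 5 windows that held any, while 45.8% of all 32851 promoter windows did. The window of Ccl17 held 1 match to each STAT pattern, with 4 and with 3 bases between, found in 5.85% and 7.02% of all windows. A TATAAA match stood 32 to 27 bases before the start of Ccl8 and 31 to 26 bases before that of Ccl12, against 12.4% of all windows with one anywhere. None of the 5 windows matched the AP-1 or the interferon regulatory factor pattern (6.75% and 2.98% of all windows), and that of Ccl3 held none of the 6. Such matches describe the sequence and do not show that a factor binds there.

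Levels per length, in CPM per kilobase of the longest transcript model, put the same 3 monocyte chemoattractants on top in both groups. In photoconverted tumors Ccl2 had 188 ± 88.3, Ccl7 168 ± 39.5 and Ccl8 126 ± 81.0 CPM per kb, and in control tumors Ccl7 had 111 ± 26.4, Ccl2 101.1 ± 40.3 and Ccl8 86.3 ± 38.2 CPM per kb (SD, n = 4 each). The ranges of these 3 overlapped within each group, and Ccl2 exceeded Ccl7 in 2 of 4 photoconverted tumors, so their order is not settled. A clear step followed, since no other ligand exceeded 27.3 CPM per kb in photoconverted and 19.3 CPM per kb in control tumors (Ccl12 in both), below every value of Ccl8. Group means lay between 6.61 and 16.6 CPM per kb for Ccl4, Ccl12, Ccl5 and Ccl11, with overlapping ranges. Ccl5 and Ccl12 were each above Ccl11 in all 8 tumors, while the order of Ccl4, Ccl5 and Ccl12 differed between tumors. Ccl3 followed at 7.28 ± 3.76 and 3.24 ± 1.91 CPM per kb. The CCR4 ligands came last in both groups, with Ccl22 at 0.919 ± 0.349 and 1.76 ± 1.42 and Ccl17 at 0.132 ± 0.204 and 0.352 ± 0.244 CPM per kb. Ccl22 ranked below Ccl3 and above Ccl17 in every tumor, although over the control tumors the ranges of these neighbors overlapped.

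**Figure D1:**
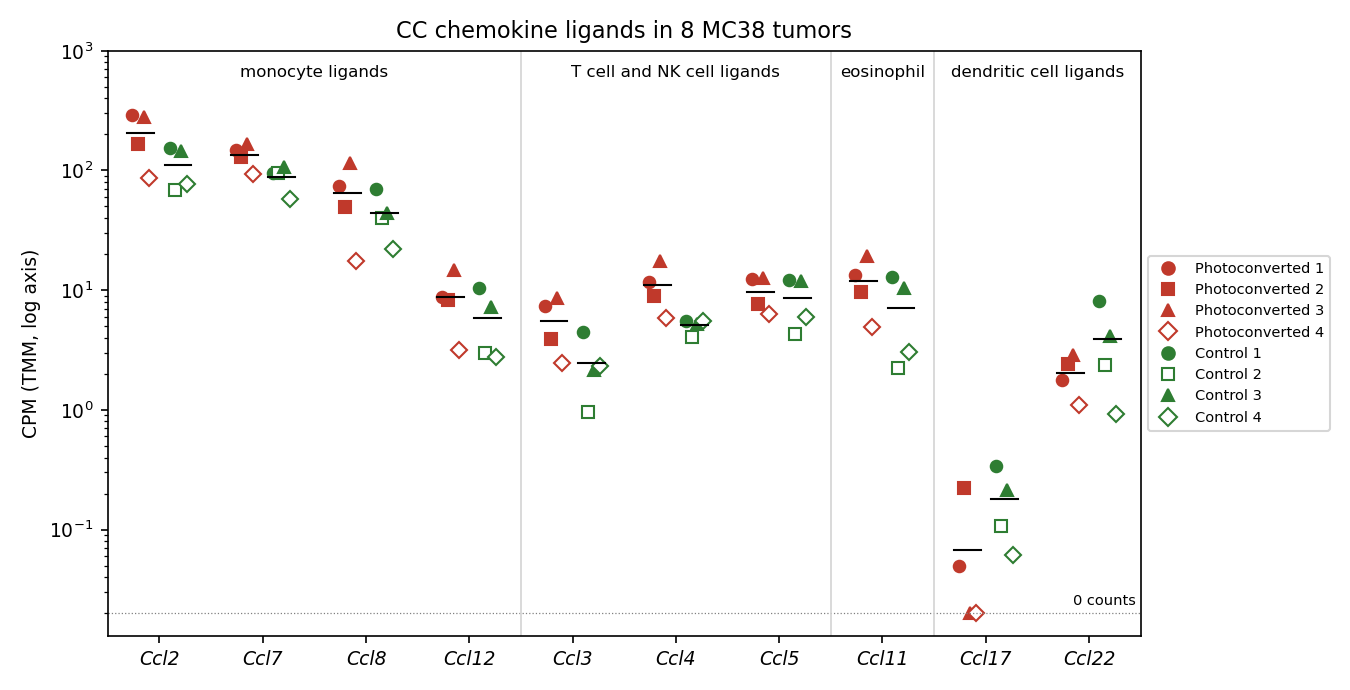
CPM (TMM normalization, log axis) of the 10 ligands in each tumor, with photoconverted tumors in red, controls in green, one symbol per replicate number, open symbols for the 3 libraries with an Rn45s share above 10%, and black bars at the group means. CPM are not scaled by length, so heights compare tumors and not genes. Open symbols lie low in most genes of both groups, photoconverted tumors lie clear of the controls for Ccl4 alone, and Ccl17 was at 0 counts in 2 photoconverted tumors.

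The 10 ligands showed no difference between the groups that passed the test across all genes. By edgeR's quasi-likelihood test, 0 of 14468 genes (0.0%) reached an adjusted p under 0.05, and 322 (2.23%) reached 0.05 without adjustment, while DESeq2's Wald test gave 24 genes (0.144%) with an adjusted p under 0.05, none of them a member. On simulated data DESeq2 gave more false calls than edgeR (48 against 13). Those data were drawn from edgeR's own fitted means and dispersions, so they cannot settle how far DESeq2's calls hold here. Of the 10 ligands, 9 passed the filter on low counts and Ccl17 did not. The adjusted p in edgeR was 0.999 for each of the 9. Of these, 8 had a positive and 1 a negative log2 fold change, where 46.8% of all genes had a positive one, and the median log2 fold change was 0.60 against -0.01 over all genes tested. Between tumors, the median of the members had a spread of 0.76 on the log2 scale. At an unadjusted p under 0.05 stood 3 members (Ccl3, Ccl4 and Ccl7), all higher in photoconverted tumors, where 1.65% of all genes were higher at that threshold, and 0 members were lower, where 0.574% were. Within same-numbered pairs, 6 of the 10 members (Ccl2, Ccl3, Ccl4, Ccl5, Ccl7 and Ccl11) were higher in the photoconverted tumor in 4 of 4 pairs against 7.2% of all genes, and 0 were lower in all 4 against 7.18%. In pair 1 the log2 difference was only 0.00078 for Ccl5, nearly a tie, and 0.047 for Ccl11. Pair 2, with the largest difference for Ccl2, Ccl5 and Ccl11, set an Rn45s share of 9.65% (photoconverted) against 35.7% (control). The tested members varied together across tumors, as described below, so these counts of members are not independent of each other. The number of members at an unadjusted p under 0.05 was 1 (Ccl4) without photoconverted tumor 1 or photoconverted tumor 3. It was 2 without control tumor 2 (Ccl4 and Ccl7) or control tumor 4 (Ccl4 and Ccl22). It stayed at 3 without photoconverted tumor 2 or control tumor 3. Without photoconverted tumor 4 or control tumor 1 it rose to 4 (Ccl2, Ccl3, Ccl4 and Ccl7). Over all genes, the number at that threshold ran from 144 of 14630 without photoconverted tumor 3 to 777 of 14770 without photoconverted tumor 4. With the replicate number as a block, 5 members stood there (Ccl2, Ccl3, Ccl4, Ccl7 and Ccl11), where 869 genes (6.01%) had an unadjusted p under 0.05.

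Among the monocyte chemoattractants, the mean of Ccl2 in photoconverted tumors was 1.86 times its control level. It reached 289, 168, 281 and 87.1 CPM in the photoconverted tumors, numbered 1 to 4, against 154, 68.3, 144 and 77.4 CPM in the controls, numbered likewise. Photoconverted tumors 1 to 3 lay above every control tumor, and photoconverted tumor 4 lay among the controls. Group means were 206 ± 96.8 and 111 ± 44.2 CPM (SD, n = 4 each), and the log2 fold change was 0.89 with a 95% interval from -0.01 to 1.80 (adjusted p = 0.999, edgeR). A two-sided exact permutation test of the log2 CPM gave p = 0.114.

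Ccl7 differed by less than Ccl2 but more evenly. It had 149, 129, 167 and 93.3 CPM in photoconverted and 94.4, 95.2, 107 and 58.2 CPM in control tumors 1 to 4. Within same-numbered tumors the photoconverted one was higher by 0.65, 0.44, 0.64 and 0.68 on the log2 scale, whereas the groups overlapped through photoconverted tumor 4. The log2 fold change was 0.60 (95% interval 0.09 to 1.11, adjusted p = 0.999 in edgeR) with means of 135 ± 31.6 and 88.7 ± 21.1 CPM (SD, n = 4 each), and the exact permutation p was 0.114. With the replicate block the standard error shrank from 0.23 to 0.09 and the adjusted p in edgeR was 0.396.

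Ccl8 and Ccl12 varied too much within groups for their differences to be resolved. Ccl8 had 73.6, 49.9, 116 and 17.5 CPM in photoconverted and 69.6, 40.1, 44.4 and 22.2 CPM in control tumors 1 to 4. The lowest value of all 8 was that of photoconverted tumor 4, and the highest that of photoconverted tumor 3. Its log2 fold change was 0.54 (95% interval -0.62 to 1.70), and ran from 0.095 without photoconverted tumor 3 to 0.85 without control tumor 1. Ccl12, the mouse ligand most like CCL2 in its use of CCR2, had 8.83, 8.34, 14.7 and 3.14 CPM in photoconverted and 10.4, 3.00, 7.29 and 2.75 CPM in control tumors 1 to 4. Its groups overlapped over most of their range, with a log2 fold change of 0.56 (95% interval -0.62 to 1.73) that ran from 0.20 to 0.98 without the same tumors. Exact permutation tests gave p = 0.600 for Ccl8 and p = 0.371 for Ccl12.

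Of the ligands of activated T cells, NK cells and macrophages, Ccl4 (MIP-1 beta) showed the clearest separation of all members. Its CPM were 11.7, 8.91, 17.4 and 5.81 in photoconverted and 5.54, 4.07, 5.26 and 5.49 in control tumors 1 to 4. Every photoconverted tumor lay above every control tumor, with photoconverted tumor 4 and control tumor 1 the closest. Groups without overlap in this direction occurred in 0.684% of all genes tested, and Ccl4 was the 1 member among 10. Means were 11.0 ± 4.92 and 5.09 ± 0.693 CPM (SD, n = 4 each), so the spread among photoconverted tumors was wide and that among controls narrow. The log2 fold change was 1.10 (95% interval 0.40 to 1.80), with an unadjusted p of 0.00604 and an adjusted p of 0.999 in edgeR and an adjusted p of 0.283 in DESeq2. The exact permutation test gave p = 0.0286, the smallest that 4 against 4 tumors allow, in 1 of 10 such tests. An exact permutation test that flipped signs within the same-numbered pairs gave p = 0.125, the smallest that 4 pairs allow. Ccl4 had an unadjusted p under 0.05 in edgeR without each of the 8 tumors in turn.

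Ccl3 (MIP-1 alpha), which neighbors Ccl4, had a similar log2 fold change of 1.13 (95% interval 0.02 to 2.24, adjusted p = 0.999 in edgeR) on fewer counts. It had 7.38, 3.88, 8.59 and 2.46 CPM in photoconverted and 4.48, 0.963, 2.17 and 2.32 CPM in control tumors 1 to 4. The groups overlapped through control tumor 1, which lay above photoconverted tumors 2 and 4, and the exact permutation p was 0.143. Control tumor 2, with the lowest value, had 9 raw counts.

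Ccl5 (RANTES) was the member nearest to no difference. Its CPM were 12.3, 7.61, 12.6 and 6.29 in photoconverted and 12.3, 4.28, 11.9 and 5.98 in control tumors 1 to 4. Photoconverted tumors 1 and 3 and control tumors 1 and 3 shared a level of 11.9 to 12.6 CPM, and both tumors numbered 4 had about 6 CPM. The log2 fold change was 0.16, its 95% interval from -0.68 to 0.99 reaches a level 1.98 times higher in photoconverted tumors, and its sign turned without control tumor 2 (-0.05) and without the 3 Rn45s-rich libraries (-0.16). The ratio of Ccl4 to Ccl5 CPM, not scaled by length and so read between tumors alone, lay between 0.924 and 1.38 in photoconverted and between 0.443 and 0.950 in control tumors, and these ranges overlapped.

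The eosinophil chemoattractant Ccl11 had 13.3, 9.73, 19.4 and 4.92 CPM in photoconverted and 12.9, 2.25, 10.4 and 3.05 CPM in control tumors 1 to 4. The photoconverted tumor was higher in each same-numbered pair, by as little as 0.05 on the log2 scale in pair 1 and as much as 2.07 in pair 2, and the groups overlapped widely. Its log2 fold change of 0.70 (95% interval -0.60 to 2.00, adjusted p = 0.999 in edgeR) stood on means of 11.8 ± 6.09 and 7.15 ± 5.30 CPM (SD, n = 4 each), with an exact permutation p of 0.257. The log2 fold change was 0.36 without photoconverted tumor 3 and 1.13 without control tumor 1. Of the 8 eosinophil markers examined, 3 passed the filter and Ear1 had no counts, and the list summed to between 1.78 and 7.01 CPM in photoconverted and between 1.83 and 5.11 CPM in control tumors, and the part of eosinophils in the level of Ccl11 was not tested.

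The CCR4 ligands were the members with a lower mean in photoconverted tumors, although neither difference passed a test. Ccl22 had 1.78, 2.40, 2.88 and 1.09 CPM in photoconverted and 8.19, 2.35, 4.12 and 0.916 CPM in control tumors 1 to 4. Control tumors 1 and 3 lay above all photoconverted tumors, and control tumors 2 and 4 lay within or below their range. The log2 fold change was -0.96 (95% interval -2.25 to 0.34, adjusted p = 0.999 in edgeR), the exact permutation p was 0.457, and the log2 fold change was -0.29 without control tumor 1 and -1.28 without control tumor 4. Ccl17 had 2, 7, 0 and 0 raw counts in photoconverted and 12, 1, 6 and 1 raw counts in control tumors 1 to 4, with an exact permutation p of 0.143. These are 9 against 20 counts in all, most of them in control tumors 1 and 3 and photoconverted tumor 2, and a floor of 3 counts per library corresponds to between 0.0751 and 0.321 CPM. Without the filter on low counts the log2 fold change of Ccl17 was -1.33 (95% interval -3.36 to 0.70, adjusted p = 0.999 in edgeR), so that its difference was not resolved.

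**Figure D2:**
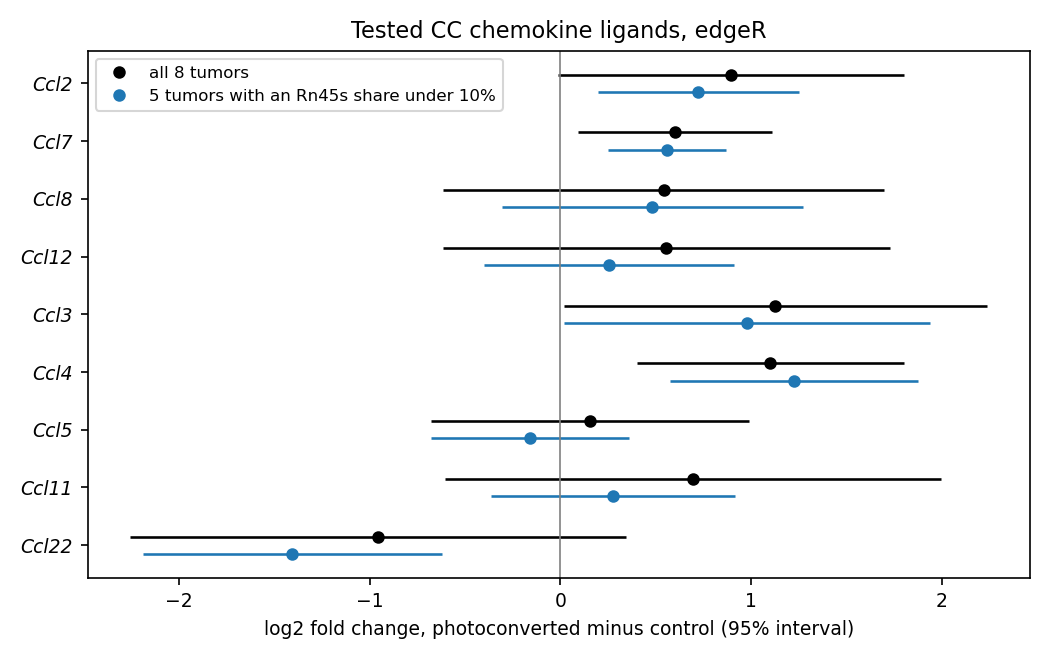
Log2 fold changes with 95% intervals from edgeR for the 9 tested ligands, for all 8 tumors (black) and for the 5 whose Rn45s share was under 10% (blue). Points to the right of 0 are higher in photoconverted tumors. The intervals of Ccl3, Ccl4 and Ccl7 lie above 0 in both fits, those of Ccl3 only just. That of Ccl5 spans 0 in both, and Ccl22 is the 1 ligand left of 0 in both. The interval of Ccl22 spans 0 in all 8 tumors and lies below 0 in the 5.

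Within the summed CC ligand message, per length, the monocyte chemoattractants made up 90.7% ± 0.661 in photoconverted and 90.6% ± 2.25 in control tumors (SD, n = 4 each). Ccl3, Ccl4 and Ccl5 together held 7.12% ± 0.749 and 7.10% ± 1.85, and Ccl11 held 1.94% ± 0.225 and 1.75% ± 0.873. Shares of these 3 roles overlapped between the groups, while the sum itself ranged from 263 to 795 CPM per kb in photoconverted and from 216 to 462 CPM per kb in control tumors. The CCR4 ligands held 0.134% to 0.323% in photoconverted and 0.247% to 0.944% in control tumors, overlapping between photoconverted tumor 2 and control tumor 4. The ratio of Ccl2 to Ccl22 CPM, again without scaling by length, was 163, 69.97, 97.8 and 79.6 in the photoconverted and 18.7, 29.0, 34.9 and 84.5 in the control tumors. Control tumor 4 was the 1 control within the photoconverted range.

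**Figure D3:**
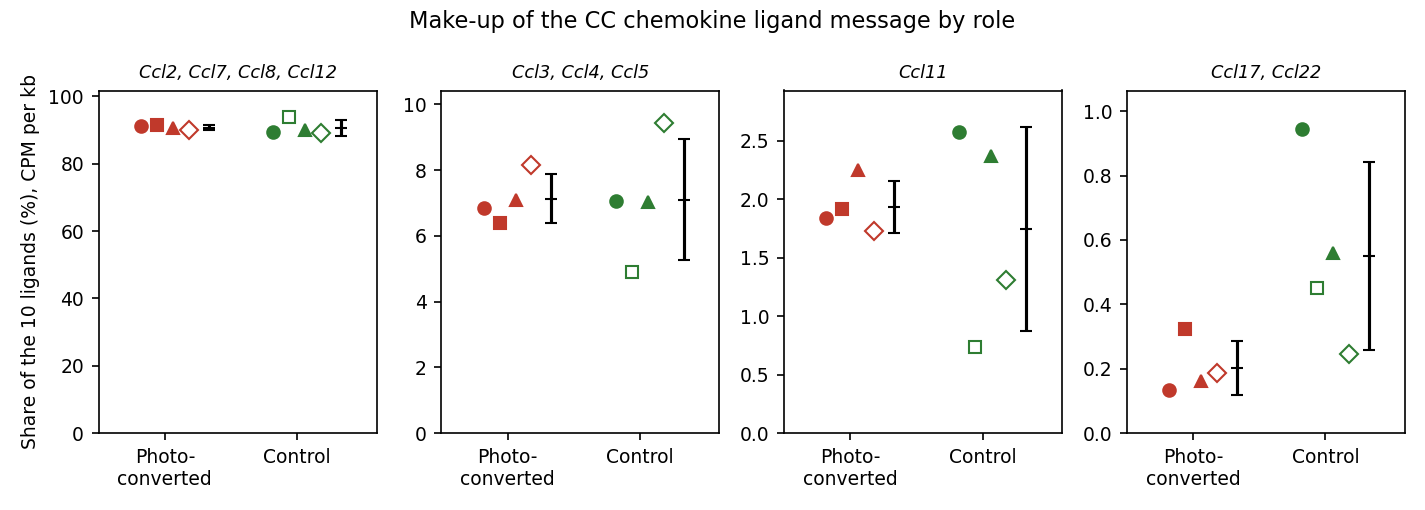
Share of each role in the sum of the 10 ligands (percent, from CPM per kb) in each tumor, with symbols as in the plot of CPM by tumor and black bars for mean ± SD (n = 4). Each panel has its own axis starting at 0. The first 3 panels overlap between the groups, and in the panel of Ccl17 and Ccl22 the control tumors lie higher, apart from control tumor 4 at 0.247%.

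The Rn45s-rich libraries held the lowest levels of most ligands in both groups. Photoconverted tumor 4 was the lowest of its group in 9 of the 9 tested members (40.6% of all genes tested). For Ccl17, not tested, it tied at 0 counts with photoconverted tumor 3. Control tumors 2 and 4 were both below control tumors 1 and 3 in 6 of the 9 tested members (32.9% of all genes tested), and for Ccl17. For Ccl2, Ccl5, Ccl8, Ccl11 and Ccl12 all 3 rich libraries lay below all 5 others, as 21.0% of all genes did. Ccl12 had 2.75 to 3.14 CPM in the former and 7.29 to 14.7 CPM in the latter, and Ccl11 had 2.25 to 4.92 against 9.73 to 19.4 CPM. Ccl7 was less divided, with 58.2 to 95.2 against 94.4 to 167 CPM. The same 3 libraries had the lowest totals, 12576615 to 19496945 counts against at least 22695586 in the other 5, and the part of depth in these levels was not tested.

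With the Rn45s-rich libraries set aside, photoconverted tumors 1 to 3 lay above control tumors 1 and 3 for Ccl2, Ccl4 and Ccl7, an order held by 14.0% of all genes, and below them for Ccl22, an order held by 14.4%. In the edgeR fit of these 5 tumors, chosen after the data were seen, 42 of 15252 genes (0.275%) had an adjusted p under 0.05, none of them a member. The smallest adjusted p of the members was 0.195 for Ccl4 (log2 fold change 1.22), followed by 0.209 for Ccl7 (0.56), 0.220 for Ccl22 (-1.40) and 0.355 for Ccl2 (0.72). At an unadjusted p under 0.05 stood 5 of the 9 members against 10.5% of all genes. Ccl11 and Ccl12 had log2 fold changes of 0.27 and 0.26, against 0.70 and 0.56 in all 8 tumors.

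**Figure D4:**
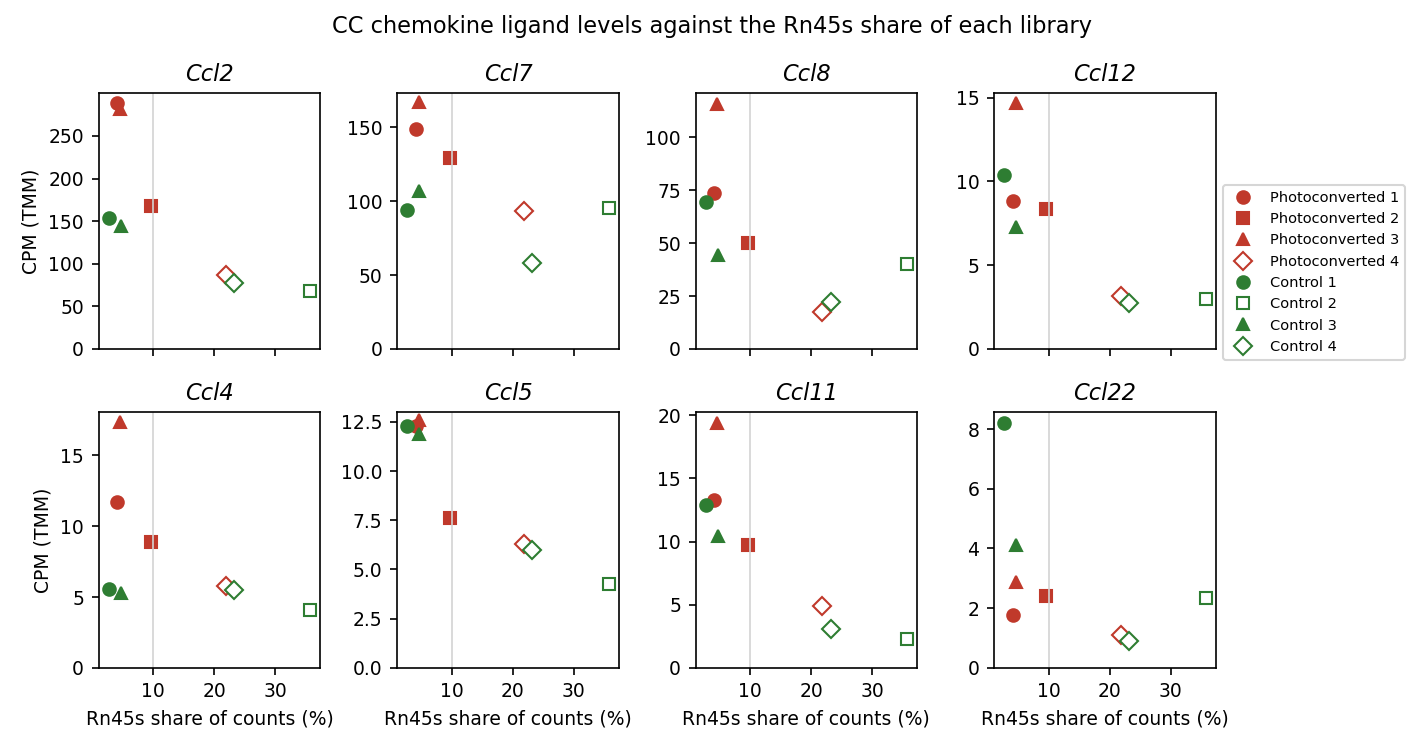
CPM (linear axes from 0) of 8 ligands against the percentage of counts on Rn45s in each tumor, with photoconverted tumors in red, controls in green and a line at 10%. Left of the line, red symbols lie above green ones for Ccl2, Ccl4 and Ccl7 and below them for Ccl22, whereas for Ccl5 and Ccl11 both colors mix. For Ccl2, Ccl5, Ccl8, Ccl11 and Ccl12 the 3 symbols right of the line lie below all 5 left of it.

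The receptors of these ligands were examined as a list of 15 CC receptors and scavengers, of which 9 passed the filter. None passed the test (0 with an adjusted or unadjusted p under 0.05 in edgeR, against 0.0% and 2.23% of all genes). A positive log2 fold change was found in 7 and a negative one in 2, with a median of 0.39, where 46.8% of all genes had a positive one. The 3 with the smallest p were Ccr3, the CCL11 receptor (1.38 ± 0.929 against 0.490 ± 0.484 CPM, log2 fold change 1.33), Ccr1 (33.8 ± 15.2 against 19.3 ± 9.08 CPM, 0.80) and the atypical receptor Ccrl2 (8.82 ± 3.92 against 5.73 ± 2.43 CPM, 0.60), all with SD over n = 4 and an adjusted p of 0.999 in edgeR. Ccr2, the receptor of CCL2, CCL7 and CCL12, had 59.5, 69.4, 78.9 and 35.3 CPM in photoconverted and 94.8, 27.1, 78.7 and 21.1 CPM in control tumors 1 to 4. Unlike for Ccl2, photoconverted tumors 1 and 2 lay below control tumors 1 and 3, and photoconverted tumor 3 lay level with control tumor 3. Ccr4, the receptor of CCL17 and CCL22, did not pass the filter and reached at most 0.474 CPM.

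Of 14 other CC ligands, 8 passed the filter. A positive log2 fold change was found in 5 and a negative one in 3, where 46.8% of all genes had a positive one. None had an unadjusted p under 0.05 in edgeR, as 2.23% of all genes did, so 0 of 8 is no result about these ligands. The 3 with the smallest p were Ccl9, the related Ccl6 and the lymphoid chemokine Ccl21a, with log2 fold changes of 0.77, 0.61 and 0.80 and an adjusted p of 0.999 in edgeR for each. Ccl6 and Ccl9, both myeloid ligands, were well expressed. Ccl6 had 31.3 to 168 CPM in photoconverted and 32.4 to 135 CPM in control tumors, and Ccl9 had 24.0 to 111 and 19.96 to 78.7 CPM. Reads of Ccl21a, Ccl21b and Ccl21c, near-identical copies, could have been split or counted in more than 1 of them. Ccl21b and Ccl21c, both with a negative log2 fold change, had equal raw counts except in photoconverted tumor 1 (47 and 49). They are therefore not separate measurements. The 6 below the filter included Ccl26, which had no counts.

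Genes that drive or restrain CC ligand expression formed a list of 19, of which 15 passed the filter. Of these, 11 had a positive and 4 a negative log2 fold change, where 46.8% of all genes had a positive one. At an unadjusted p under 0.05 were Zfp36, Il1b and Nfkbiz, all higher, as 1.65% of all genes were at that threshold. None had an adjusted p under 0.05 in edgeR (0.999 for each). Zfp36 encodes tristetraprolin, which destabilizes cytokine and chemokine messages, and had 53.6, 54.1, 81.6 and 32.6 CPM in photoconverted and 28.9, 38.2, 29.8 and 28.9 CPM in control tumors 1 to 4 (log2 fold change 0.82). Il1b, a cytokine that induces Ccl2 through NF-kB, had 70.03, 56.1, 91.0 and 20.2 CPM and 28.2, 20.7, 37.6 and 21.1 CPM in the same order (1.14). Photoconverted tumors 1 to 3 lay above every control for Il1b, and photoconverted tumor 4 just below the lowest. Tnf differed by -0.07 on the log2 scale (5.60 ± 1.12 against 5.84 ± 1.41 CPM, SD, n = 4 each).

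Summed markers of macrophages, T cells, NK cells and dendritic cells overlapped between the groups. Over all genes tested, 46.8% had a positive log2 fold change and 1.65% were higher at an unadjusted p under 0.05 in edgeR. Of 10 monocyte and macrophage markers, 5 had a positive and 5 a negative log2 fold change, with sums of 651 to 1245 CPM in photoconverted and 476 to 1127 CPM in control tumors. At an unadjusted p under 0.05 in edgeR stood 1 of them, the endotoxin co-receptor Cd14, with a log2 fold change of 0.74 (adjusted p = 0.999) in all 8 tumors and of 1.31 (adjusted p = 0.0484) in the 5 tumors low in Rn45s. Ly6c2, another of the 10, went the other way in those 5 tumors (log2 fold change -0.74, adjusted p = 0.231 in edgeR). There it was lower in every photoconverted tumor than in either control tumor. The 9 measured T cell markers (4 positive, 5 negative) summed to between 12.4 and 34.7 and between 6.96 and 30.2 CPM, and the 7 NK cell markers (4 positive, 3 negative) to 47.4 to 83.6 and 37.0 to 92.5 CPM. Of 10 dendritic cell markers 9 were tested (3 positive, 6 negative), with sums of 442 to 609 and 403 to 655 CPM. These sums were highest in photoconverted tumor 4 (609 CPM) and control tumors 2 and 4 (655 and 614 CPM), where most ligands were lowest. Whether this sum follows the dendritic cells was not tested. Fibroblast markers, of which 5 of 9 were positive, summed to 3490 to 4753 CPM and 3306 to 12528 CPM, and endothelial markers, 6 of 7 positive, to 104 to 191 and 92.8 to 157 CPM. By contrast, 7 of 7 neutrophil markers had a positive log2 fold change and an unadjusted p under 0.05, with sums of 66.3, 79.6, 115 and 20.98 CPM in photoconverted and 30.6, 18.7, 23.7 and 19.8 CPM in control tumors. As for Ccl2, photoconverted tumors 1 to 3 lay above all controls and photoconverted tumor 4 among them. In edgeR with all 8 tumors 0 of the 7 passed the test (adjusted p = 0.999 for each), but S100a8, S100a9 and Trem1 passed in DESeq2 (adjusted p of 0.0487, 0.0273 and 0.0315) and in the edgeR fit of the 5 tumors low in Rn45s (0.0266, 0.0195 and 0.0167). Mast cell markers (6 of 6 tested positive) summed to 11.0 to 30.1 and 8.97 to 22.6 CPM. Skeletal muscle markers (7 of 7 positive) summed to 344, 567, 1102 and 130 CPM in photoconverted and 238, 266, 338 and 134 CPM in control tumors. Keratinocyte markers (2 of 2 tested positive) summed to 1.09 to 17.0 and 1.20 to 2.70 CPM. At an unadjusted p under 0.05 in edgeR stood 1 mast cell, 2 skeletal muscle and 1 keratinocyte marker, all higher. For mast cell and skeletal muscle markers, too, photoconverted tumors 1 to 3 lay above all controls. Photoconverted tumor 4 lay among the controls for the former and just below them for the latter. Ms4a2 and Xcr1 were below the filter. The part of these cells in the ligand levels was not tested.

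Ligands were compared with each other by Pearson's r of their deviations from the group means over the 8 tumors, a description in which the 3 Rn45s-rich libraries weigh on every pair. All pairs were positive. Ccl5 and Ccl11 were the most alike (0.97) and Ccl11 and Ccl12 followed (0.96), whereas Ccl4 and Ccl22 (0.37) and Ccl3 and Ccl7 (0.41) were the least alike. Deviations of Ccl11 and Ccl5 also followed the log2 Rn45s share most closely (-0.98 each), and those of Ccl4 and Ccl7 least (-0.63 and -0.65). The gene outside the list most like each member, by the same measure, was Nab1 for Ccl2, Serpina3g for Ccl7, Rnf150 for Ccl8, Ang for Ccl12, Rmrp for Ccl3, 9130019O22Rik for Ccl4, C130026I21Rik for Ccl5, Dennd5a for Ccl11 and Ubash3a for Ccl22. These values lay between 0.981 and 0.999, as the best of 14468 genes over 8 tumors, and between 0.969 and 0.998 without the 2 tumors farthest from the median of the member.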

How the data were processed

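RNA was extracted from 8 MC38 tumors and sequenced in bulk. The sources differ on the library kit, TruSeq stranded in the study's methods and SMARTER stranded in the labels. Raw counts, 1 row per gene symbol, were deposited by the authors, as were normalized signal values. The latter matched raw counts over size factors computed with DESeq2, and left out genes with 1 count or fewer in all. The submitters' processing notes list CASAVA, FastQC, Trim Galore, HISAT2, featureCounts, DESeq2 and mm10, and the settings and gene annotation are not given in the sources used here. Each column's letter gave its tumor.

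Counts were tested with edgeR 4.0.16 in R 4.3.3 (TMM, filterByExpr, glmQLFit, glmQLFTest, Benjamini-Hochberg adjustment, threshold 0.05), with DESeq2 1.42.0 and limma 3.58.1 (log2 of the normalized values plus 1) as alternatives. CPM used TMM factors, and log2 CPM a prior count of 2. The standard error was the log2 fold change over the root of the F statistic. Exact permutation tests were two-sided over all 70 arrangements. Transcript lengths and positions came from GENCODE M21 (GRCm38), promoters from RefSeq. Simulated data of 14468 genes, with 200 changed 4-fold, were drawn from the means and dispersions that edgeR had fitted. On these, edgeR recovered 180 with 13 false calls. DESeq2 recovered 186 with 48 false calls, and limma 178 with 12.

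Members, gene lists and the fits without Rn45s-rich libraries were chosen with earlier results of these data known. Besides the members, the text names from each list that holds no markers the 3 tested genes of lowest p, and for each member the gene most like it. Krt18, Krt19, Krt7, Epcam, Ear1, Cd14, Ly6c2, S100a8, S100a9, Trem1, Ms4a2, Xcr1, Tnf, Ccr2, Ccr4 and Ccl26 were named after their values were seen. Both groups carry replicate numbers 1 to 4 in the labels. Deviations from the group means correlated across genes in every same-numbered pair (r of 0.60, 0.11, 0.41 and 0.62). The mean between different numbers was -0.13. It is no separate baseline, since removing the group means ties it to the same-numbered values. The same-numbered control was the closest for photoconverted tumors 1, 2 and 4, but not for photoconverted tumor 3. Fits with a replicate block are therefore given beside those without. Same-numbered tumors also lay on the same side of an Rn45s share of 10%, apart from number 2 (9.65% photoconverted against 35.7% control). The block and the Rn45s share thus cannot be fully told apart. The labels give 4 mice per group, so p-values measure the spread between these 8 tumors. No 2 libraries of a group differed by as little as sampling noise (chi-square per degree of freedom at least 26.1).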

Additional observations from a re-analysis of the deposited data

Results flagged for a closer look

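Control tumor 1 lay far above the other control tumors for Ccl6, with 135 CPM against 48.9 CPM in the nearest. Control tumor 2 lay far above the others for Zfp36, with 38.2 CPM against 29.8 CPM. Of the 38 groups of 4 tumors examined, 2 held such a tumor, where chance gives 1.9. None of the 10 CC ligands of the report was among them.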

How the results depend on the processing

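No CC ligand of the 9 tested had an adjusted p under 0.05 in any of the 17 alternatives, and 8 of them kept their sign in all 17. Ccl5 turned to -0.055 without control tumor 2 (range -0.055 to 0.37 with each tumor left out) and to -0.16 without the 3 Rn45s-rich libraries. The count of genes called rose from 0 to 24 with DESeq2's Wald test and to 42 without the 3 Rn45s-rich libraries, and lay between 0 and 11 with each tumor left out (11 without photoconverted tumor 4). The cause was not tested. The median log2 fold change of the 9 ligands (0.60) was 0.61 with the replicate block and lay between 0.36 (without photoconverted tumor 3) and 0.98 (without control tumor 1) with each tumor left out. The block changed no call at an adjusted p, with 0 genes and 0 ligands called. Genes at an unadjusted p under 0.05 numbered 322, and 869 with the block, 569 with DESeq2, 635 with no filter, 1010 with the log2 Rn45s share as a covariate and 1604 without the 3 Rn45s-rich libraries, the last pair chosen after seeing the data. For Ccl4, the mean log2 difference of 0.99 had an exact sign-flip permutation p of 0.125 within same-numbered pairs (replicate block), the smallest that 4 pairs allow. The few counts of Ccl17 and the totals of the Rn45s-rich libraries limit precision.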
